A study of Mus musculus with 18 samples.

Results

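The genes described here are the hepatic serum amyloid A genes Saa1, Saa2, Saa3 and Saa4 and the short pentraxin genes Apcs and Crp, and they were chosen as all probe sets whose platform symbol was one of these 6 names. They made up 6 of the 12394 genes and 8 of the 22690 probe sets measured. RNA from 18 livers was hybridised to 1 array per mouse, in 6 groups of 3: liver FXR knockout (Liver KO) mice with GW4064 and with vehicle, whole-body FXR knockout (whole-body KO) mice with GW4064 and with vehicle, and wild type (WT) mice with GW4064 and with vehicle. All mice were males on the C57BL/6J background, aged 10 to 16 weeks. FXR, encoded by Nr1h4, is the nuclear receptor for bile acids, and GW4064 is a synthetic agonist of it. The Liver KO mice carry a floxed Fxr allele with Cre under the albumin promoter, so the deletion is meant for hepatocytes. Per the labels, every mouse was gavaged 2 times, in the evening and on the next morning, with 150 mg/kg of GW4064 or with vehicle, and the liver was taken 2 hours after the second gavage. The study's methods instead describe WT mice on a lower dose given more often and fasted overnight, and they name a different Affymetrix array than the 3′ array whose probe sets the values carry. The names of the probe sets settle that these values come from the 3′ array. The methods for the arrays name no knockout mice, so they may describe another experiment. The values do not settle which account of the dosing holds.

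Serum amyloid A proteins are small apolipoproteins that circulate on high-density lipoprotein. In the acute-phase response, IL-1, TNF and IL-6 act on hepatocytes through NF-kappaB, STAT3 and C/EBP factors and raise transcription of Saa1 and Saa2 steeply. Saa3 is also made by macrophages and adipocytes in the mouse, while Saa4 is known as the constitutive member. The short pentraxins are secreted discs of identical subunits that bind microbial surfaces and cell debris and recruit complement through C1q. In the mouse, Apcs, which encodes serum amyloid P component, is the acute-phase pentraxin, and Crp, which encodes C-reactive protein, responds only weakly, the reverse of the human pattern.

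The 4 Saa genes lie together on chromosome 7, and Apcs and Crp lie together on chromosome 1. The sequences just before the start sites of Saa1, Saa2 and Saa3 are shown because Saa1 and Saa2 moved together from liver to liver while Saa3, in the same cluster, followed another order. Each is the 250 bases before the RefSeq start in GRCm38.p6, read 5′ to 3′ on the strand of the gene, with matches to the C/EBP motif TTGCNNAA in capitals. The Saa1 stretch is chr7:46742981-46743230 on the minus strand, that of Saa2 is chr7:46751583-46751832 on the plus strand and that of Saa3 is chr7:46715677-46715926 on the minus strand.
Saa1: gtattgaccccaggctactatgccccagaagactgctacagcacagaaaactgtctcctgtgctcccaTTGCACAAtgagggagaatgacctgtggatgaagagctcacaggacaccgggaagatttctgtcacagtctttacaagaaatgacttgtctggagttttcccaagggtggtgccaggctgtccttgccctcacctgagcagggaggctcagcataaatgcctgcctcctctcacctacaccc
Saa2: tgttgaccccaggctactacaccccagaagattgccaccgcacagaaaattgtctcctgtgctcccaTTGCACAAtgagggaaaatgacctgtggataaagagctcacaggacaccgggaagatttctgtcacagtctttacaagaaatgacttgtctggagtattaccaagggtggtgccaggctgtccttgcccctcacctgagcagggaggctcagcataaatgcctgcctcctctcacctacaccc
Saa3: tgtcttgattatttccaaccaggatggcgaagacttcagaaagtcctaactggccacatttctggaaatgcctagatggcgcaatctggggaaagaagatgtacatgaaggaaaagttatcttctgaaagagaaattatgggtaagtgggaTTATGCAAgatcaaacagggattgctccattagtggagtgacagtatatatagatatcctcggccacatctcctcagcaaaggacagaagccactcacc
Over 300 bases (250 before to 50 after the start), Saa1 and Saa2 were identical at 287 of 301 aligned columns (95.3%), whereas all other pairs of the 6 genes shared between 43.3% and 50.9%. On either strand, the C/EBP motif was found in the 4 Saa promoters, and 10.8% of 32851 promoters of the same length held it. It lay at -182 to -175 in Saa1, at -183 to -176 in Saa2 and, in the opposite orientation, at -99 to -92 in Saa3. The STAT motif TTCNNNGAA was found in Apcs only, as against 8.3% of all promoters, and the NF-kappaB motif in none of the 6, as against 8.46%. Of the NF-kappaB motif only 1 strict form was searched, opening with GGG and closing with CC, so near variants were not counted. The hexamer AGGTCA, 1 arm of the FXR response element, stood in Saa1, Saa2 and Saa4 and in 16.3% of all promoters. The full inverted repeat of that hexamer, spaced by 1 base, stood in none of the 6 and in 0.00913% of all promoters. Only its exact letters were searched, so near variants were not counted, and with so rare a match its absence says little. TATAAA was found in Crp only and in 13.6% of all promoters, and GTTAAT, 1 arm of the HNF1 motif, in none of the 6 and in 7.1%. These matches describe letters in a window and say nothing about binding.

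The close identity of Saa1 and Saa2 also touched the array. Saa1 was read by 2 probe sets, and the second of them, kept out of the fit, was designed on a transcript that RefSeq now assigns to Saa2, the same transcript from which the single Saa2 probe set was designed. RefSeq also lists each of the 2 names as an older synonym of the other. The values of Saa1 and Saa2 are therefore not separate readings of 2 genes beyond doubt. The 2 Saa1 probe sets followed each other over the 18 arrays (Pearson's r = 0.996), as did the 2 Saa4 probe sets (r = 0.965). Saa3, Apcs and Crp each had 1 probe set. Levels are log2 expression and were not compared between genes, since probe sets differ in how strongly they bind.

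Genotype and agonist were checked first. Nr1h4 lay between 3.98 and 4.69 on all 12 arrays of knockout livers, and it was at 8.99, 8.94 and 9.15 in WT livers with GW4064 and at 9.01, 9.39 and 8.83 in WT livers with vehicle. Nr0b2, which encodes the FXR target SHP, was at 10.84, 9.59 and 9.04 in WT livers with GW4064, against 7.85, 7.86 and 8.21 with vehicle, a difference of 1.85 (adjusted p = 0.0433 in limma). In Liver KO livers Nr0b2 was at 8.78, 9.04 and 8.66 with GW4064, against 7.56, 8.01 and 8.18 with vehicle, and in whole-body KO livers at 8.04, 7.77 and 7.04 with GW4064, against 8.77, 8.16 and 8.16 with vehicle, and neither difference passed (adjusted p = 0.894 and 0.794). Array medians ranged between 5.96 and 6.00 over the 18 arrays. The spread of relative expression was widest on the array of WT GW4064 replicate 1 (interquartile range 0.259), followed by whole-body KO GW4064 replicate 3 (0.231), while the other 16 arrays lay between 0.127 and 0.197. Albumin stood between 14.78 and 14.97 in all livers.

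In WT livers with GW4064, the 6 genes lay above the vehicle level by very unequal amounts, and the 3 mice differed. Saa1 was at 14.42, 14.37 and 12.59 with GW4064, against 11.79, 11.18 and 11.07 with vehicle. Saa2 was at 14.54, 14.29 and 10.34 with GW4064, against 9.21, 8.53 and 8.67 with vehicle. For both genes every GW4064 array lay above every vehicle array, yet replicate 3 lay far below the other 2. The difference in means was 4.25 for Saa2, or 19.0 fold (SE 0.86, 95% interval 2.43 to 6.06), and its adjusted p in limma was 0.0597. For Saa1 it was 2.45, or 5.45 fold (SE 0.50, 95% interval 1.39 to 3.50, adjusted p = 0.0622). The second Saa1 probe set gave 2.79. Within the GW4064 group, the highest and the lowest Saa2 value were 18.5 fold apart, as against 1.60 fold in the vehicle group.

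Saa3 was at 10.79, 9.32 and 7.52 in WT livers with GW4064 and at 7.44, 7.71 and 7.73 in WT livers with vehicle. Replicate 3 thus sat inside the vehicle range, while replicate 1 stood above every other array of the series. Its difference was 1.58 (SE 0.47, adjusted p = 0.191 in limma). Saa4 was at 13.21, 13.14 and 12.48 with GW4064, against 12.20, 11.92 and 11.80 with vehicle, and the groups did not overlap. Its difference was smaller, 0.97 or 1.96 fold (SE 0.21, 95% interval 0.53 to 1.40, adjusted p = 0.0725). The second Saa4 probe set gave 1.16.

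Among the pentraxins, Apcs showed the wider range. It was at 13.99, 12.60 and 11.15 in WT livers with GW4064 and at 10.73, 10.83 and 11.17 in WT livers with vehicle, so that replicate 3 again fell among the vehicle arrays. The difference was 1.67, or 3.18 fold (SE 0.45, adjusted p = 0.144 in limma). Crp was at 13.14, 12.59 and 12.57 with GW4064, against 12.29, 12.48 and 12.27 with vehicle. These groups did not overlap, but the difference was only 0.42, or 1.34 fold (SE 0.12, adjusted p = 0.168) and 0.23 without replicate 1.

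**Figure D1:**
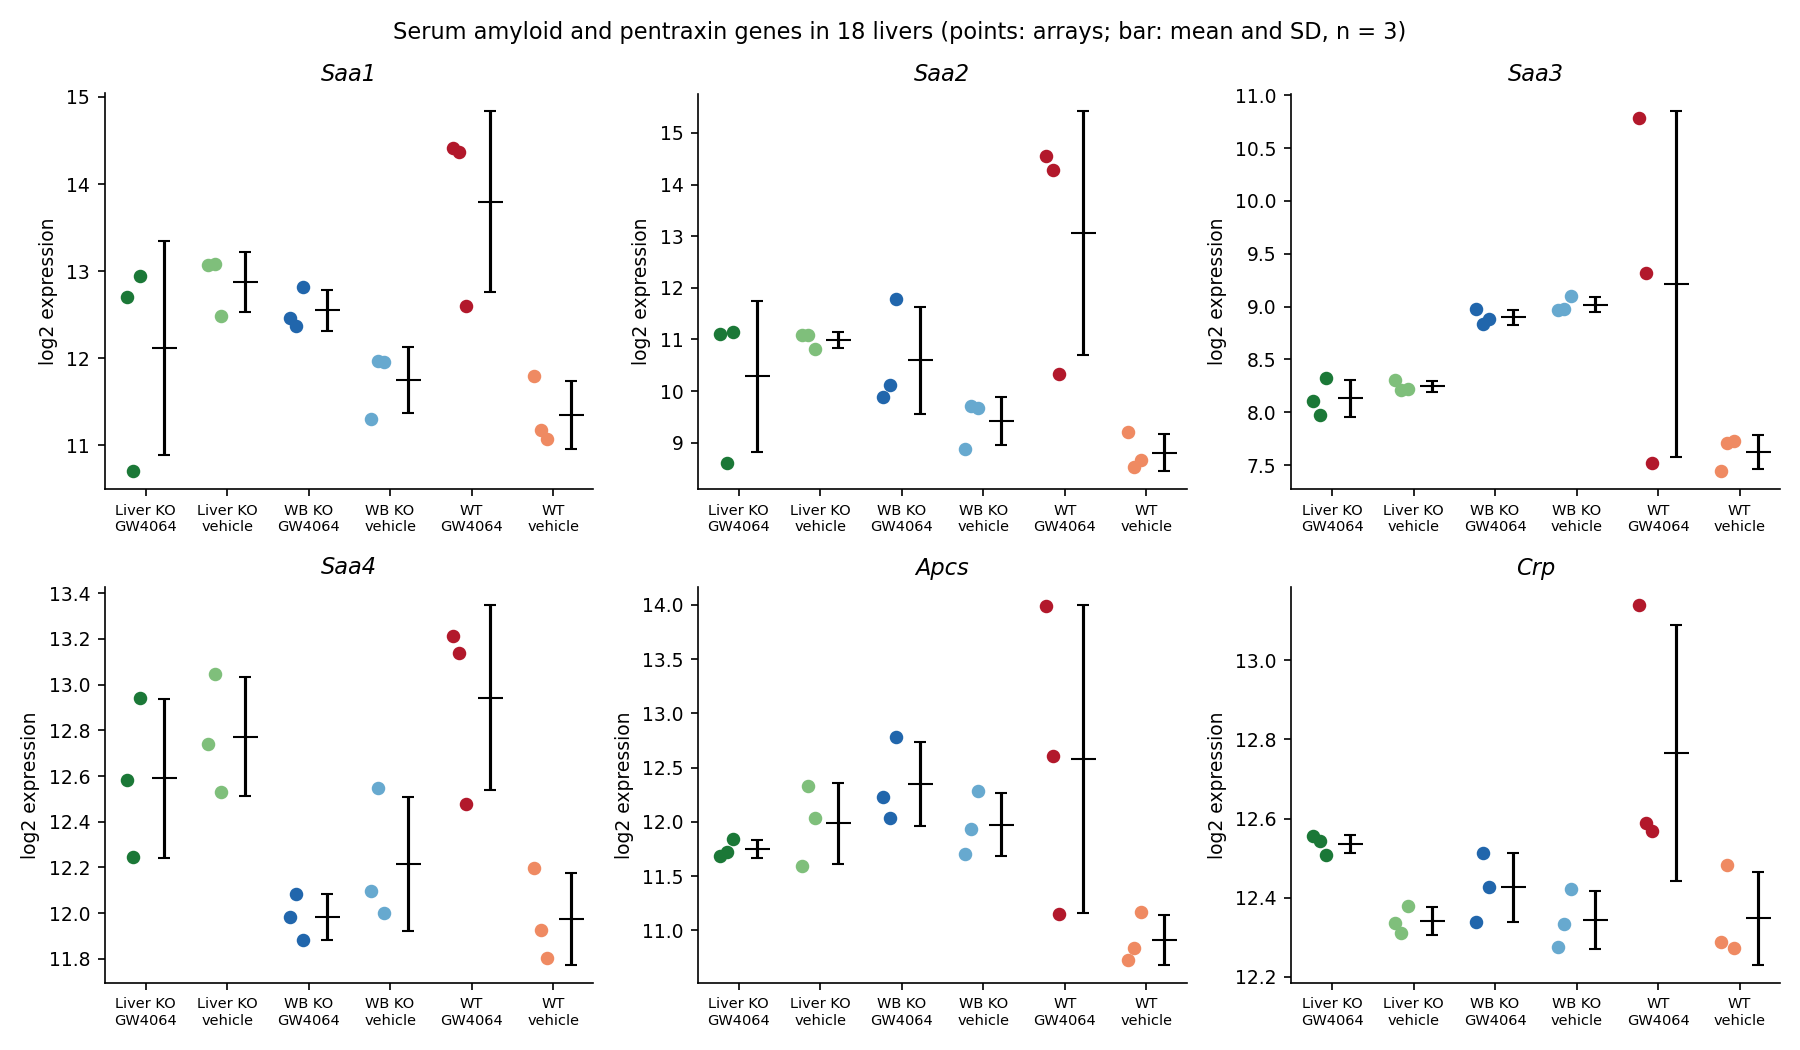
Log2 expression (y axis) of the 6 genes in each of the 6 groups (x axis; WB KO, whole-body KO), with 1 point per array and a bar for the mean and SD (n = 3). The WT GW4064 group has the highest mean for every gene and the widest spread for all but Saa1, whose SD was larger in Liver KO livers with GW4064 (1.23) than in WT livers with GW4064 (1.04).

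Across all genes, 0.194% passed the adjusted threshold of 0.05 in limma for GW4064 against vehicle in WT livers, and none of the 6 members did, although 6 of 6 had an unadjusted p under 0.05, as 12.6% of all genes had. Their median difference was 1.63, against -0.004 over all genes. At the thresholds of the study's methods, an unadjusted p under 0.05 and 1.5 fold, limma called 5 of the 6, all but Crp, where it called 1.71% of all genes. The methods' t-test at the same thresholds called 3 of the 6 (Saa1, Saa2 and Saa4) and 0.524% of all genes, and after Benjamini-Hochberg adjustment none. The GW4064 arrays all lay above the vehicle arrays for 4 members (Saa1, Saa2, Saa4 and Crp) and for 7.06% of all genes.

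Replicate 3 was the lowest of the 3 WT GW4064 arrays for each of the 6 genes. Leaving it out necessarily raised every difference, and with the remaining arrays all 6 members passed the adjusted threshold, as did 2.16% of all genes. Saa2 then differed by 5.61 (adjusted p = 0.000152 in limma), Saa1 by 3.05, Saa3 by 2.43, Apcs by 2.38, Saa4 by 1.20 and Crp by 0.52 (adjusted p = 0.0383). Without replicate 1, no member passed, and the differences of Saa3 and Apcs dropped to 0.79 and 0.97. Without any 1 of the other 4 WT arrays, no member passed either.

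**Figure D2:**
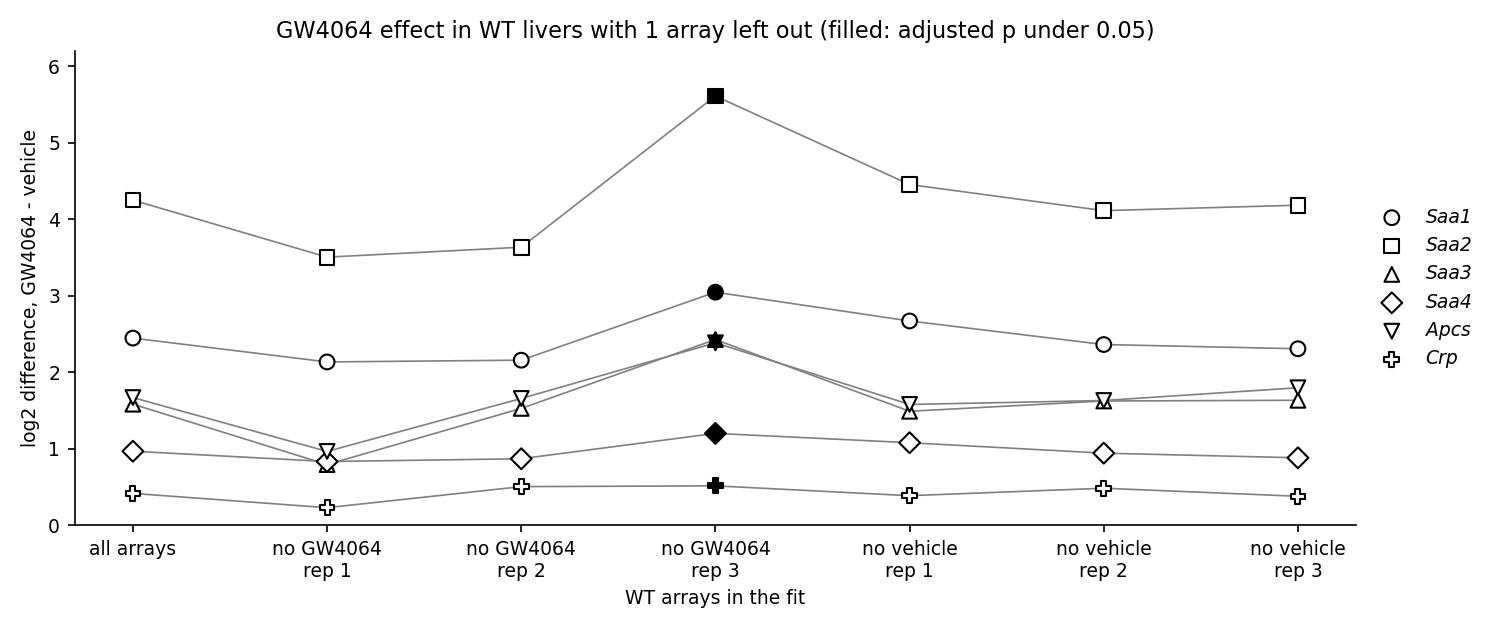
Log2 difference of WT livers with GW4064 minus WT livers with vehicle (y axis) for the 6 genes, with all arrays and with each WT array left out in turn (x axis); filled symbols passed the adjusted threshold, and lines only link the values of a gene. Filled symbols appear in 1 setting, without GW4064 replicate 3, where Saa2 reaches 5.61.

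The order of the 3 WT GW4064 arrays was shared with other measures. The median shift of the 6 genes from the WT vehicle mean was 3.07, 1.69 and 0.37 in replicates 1, 2 and 3, and the median shift of 21 other acute-phase genes was 1.14, 0.81 and 0.11. Nr0b2 had the same order, and in replicate 3 it was still above the 3 vehicle arrays. The 7 endothelial markers ran the opposite way, with median shifts of -0.81, -0.36 and -0.10. Of these 7, 6 had an unadjusted p under 0.05 for GW4064 against vehicle in WT livers, as 12.6% of all genes had. The fall was not confined to WT livers. In whole-body KO livers the endothelial median difference was -0.311, with 4 of the 7 at an unadjusted p under 0.05 (6.25% of all genes). In Liver KO livers it was -0.009, with none at that p (5.02% of all genes). The 9 macrophage and Kupffer cell markers shifted by -0.22, 0.59 and -0.45, in another order. Of the 9 neutrophil markers, S100a8 and S100a9 reached 7.56 and 7.66 at most, while the granule genes Ngp, Ltf, Mpo and Elane stayed between 3.97 and 5.84, below the array medians. Camp, Cxcr2 and Mmp8 lay between 3.90 and 5.19. The summed level of the neutrophil markers was 7.87 to 9.19 in WT livers with GW4064 and 7.82 to 8.08 with vehicle. Their median shifts in WT GW4064 replicates 1, 2 and 3 were only 0.145, 0.078 and -0.056. In WT livers 5 of the 9 lay above 0, and 2 had an unadjusted p under 0.05 (12.6% of all genes). The part of cell composition and of the spread on the array of replicate 1 in the members' values was not tested, and in whole liver a change in cell number and a change in RNA per cell cannot be told apart.

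In Liver KO livers, the mean with GW4064 was below that with vehicle for 5 of the 6 genes, all but Crp. Saa1 was at 12.70, 10.70 and 12.94 with GW4064, against 13.07, 13.08 and 12.48 with vehicle. Saa2 was at 11.11, 8.60 and 11.14 with GW4064, against 11.08, 11.08 and 10.81 with vehicle. In both genes GW4064 replicate 2 stood alone, within or below the range of the WT vehicle arrays, and the other 2 lay within or next to the vehicle range. The differences were -0.76 for Saa1 (95% interval -1.82 to 0.29) and -0.71 for Saa2 (95% interval -2.52 to 1.11), and without replicate 2 they were -0.05 for Saa1 and 0.13 for Saa2. Without replicate 3 they were -1.18 and -1.14, and without replicate 1 that of Saa2 was -1.12. Saa4 was at 12.58, 12.24 and 12.94 with GW4064 and at 12.74, 13.05 and 12.53 with vehicle, again with replicate 2 the lowest. Saa3 lay between 7.98 and 8.32 with GW4064 and between 8.21 and 8.31 with vehicle, and Apcs between 11.68 and 11.84 with GW4064 and between 11.59 and 12.33 with vehicle. Crp was the exception, at 12.56, 12.54 and 12.51 with GW4064, against 12.34, 12.31 and 12.38 with vehicle, a difference of 0.19 (95% interval -0.05 to 0.44) without overlap. It was the only member whose GW4064 arrays all lay above the vehicle arrays in this genotype, as they did for 6.11% of all genes. In limma, 0% of all genes and none of the members passed, and no member had an unadjusted p under 0.05, as against 5.02% of all genes.

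In whole-body KO livers, Saa1 was at 12.46, 12.36 and 12.81 with GW4064, against 11.30, 11.97 and 11.96 with vehicle. Saa2 was at 9.89, 10.12 and 11.78 with GW4064, against 8.88, 9.70 and 9.67 with vehicle. For these 2 genes, and for 4.39% of all genes, every GW4064 array lay above every vehicle array, with differences of 0.80 for Saa1 (95% interval -0.25 to 1.86) and 1.18 for Saa2 (95% interval -0.64 to 2.99). Replicate 3, the array with the second widest spread, was the highest of the GW4064 group for Saa1, Saa2 and Apcs, and without it the difference of Saa2 was 0.58. Apcs was at 12.23, 12.04 and 12.78 with GW4064 and at 11.71, 11.93 and 12.29 with vehicle. Saa3 was nearly flat, at 8.98, 8.84 and 8.88 with GW4064 and at 8.97, 8.98 and 9.10 with vehicle. Saa4 was at 11.98, 12.08 and 11.88 with GW4064, against 12.09, 12.55 and 12.00 with vehicle, and Crp lay between 12.28 and 12.51 in both treatments. In limma, 0% of all genes and none of the 6 members passed, and none of the 6 had an unadjusted p under 0.05, as 6.25% of all genes had. The methods' t-test at its thresholds called Saa1 and 0.0888% of all genes. These intervals do not show that GW4064 left the members unchanged without FXR.

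**Figure D3:**
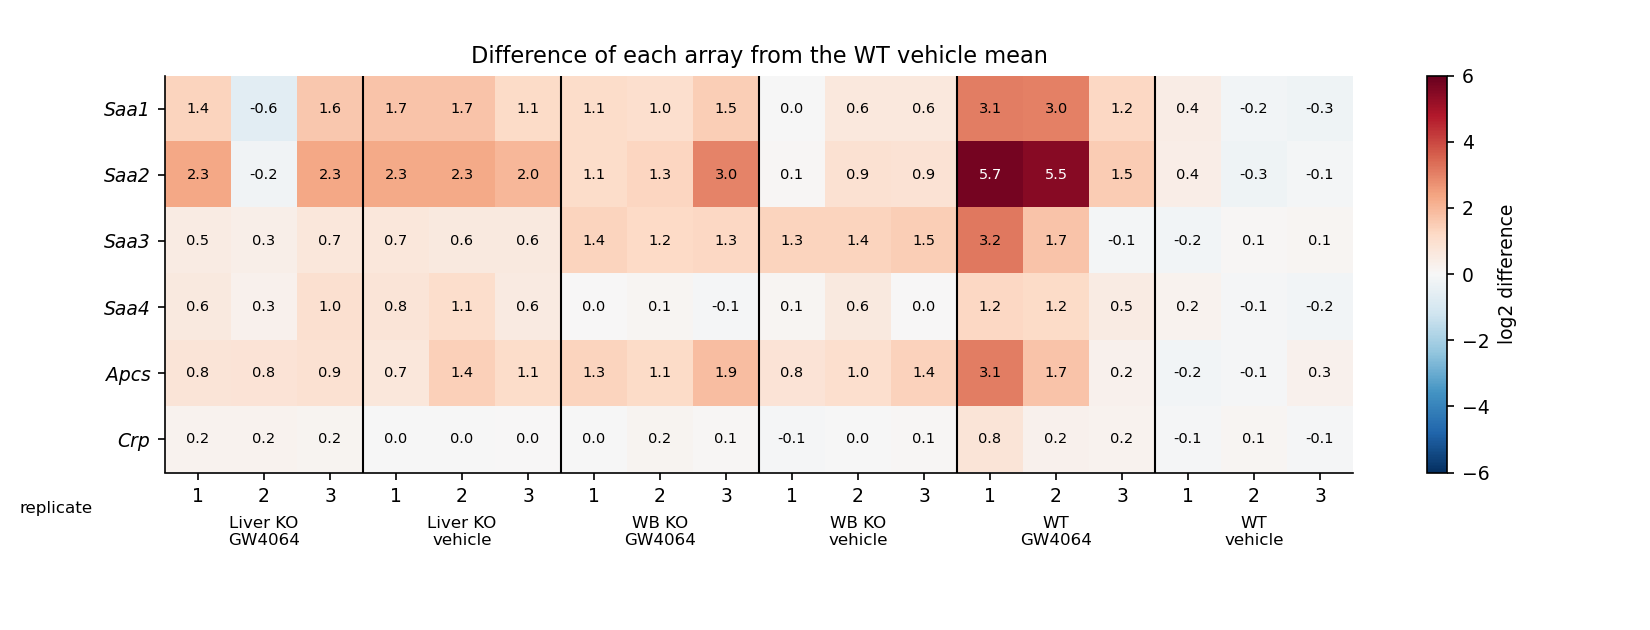
Log2 difference of each array from the mean of the WT vehicle arrays (colour and printed value) for the 6 genes (rows) and 18 arrays (columns, replicates 1 to 3 of each group; WB KO, whole-body KO). Saa2 reaches 5.7 and 5.5 in WT GW4064 replicates 1 and 2, and Liver KO GW4064 replicate 2 lies below the WT vehicle mean for Saa1 and Saa2.

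Whether the effect of GW4064 differed between genotypes was tested as an interaction. The effect in Liver KO livers minus that in WT livers was -4.96 for Saa2 (SE 1.21), -3.21 for Saa1, -1.90 for Apcs, -1.69 for Saa3, -1.15 for Saa4 and -0.22 for Crp. All 6 were negative, and 5 of them, all but Crp, had an unadjusted p under 0.05 (7.46% of all genes), but 0% of all genes and none of the members passed the adjusted threshold in limma (adjusted p = 0.437 for Saa1 and 0.476 for Saa2). For whole-body KO against WT, the interaction was -3.07 for Saa2, -1.70 for Saa3, -1.64 for Saa1, -1.30 for Apcs, -1.20 for Saa4 and -0.34 for Crp. There, 4 members had an unadjusted p under 0.05 (8.21% of all genes), and again 0% of all genes and no member passed. Both interactions share the WT arrays, and each also holds the difference between the genotypes with vehicle. With GW4064 alone, Liver KO minus WT was -2.77 for Saa2, -1.68 for Saa1, -1.08 for Saa3 and -0.83 for Apcs. It was -0.35 for Saa4 and -0.23 for Crp. Whole-body KO minus WT with GW4064 lay between -2.46 for Saa2 and -0.23 for Apcs. These differences with GW4064 were not tested. Without WT GW4064 replicate 3, the Liver KO interaction passed for 5 members, all but Crp, beside 0.403% of all genes, and the whole-body KO interaction for Saa2, Saa3 and Saa4, beside 0.178% of all genes. Without WT GW4064 replicate 1, the Liver KO interaction was -0.91 for Saa3 and -1.20 for Apcs, and the whole-body KO one -0.91 and -0.59. For Crp these were -0.04 in Liver KO and -0.15 in whole-body KO. Without WT GW4064 replicate 3, the whole-body KO interaction of Apcs was -2.01. Averaged over the 3 genotypes, the GW4064 effect was 1.57 for Saa2 and 0.83 for Saa1, and no member was among the 0.0242% of genes that passed, with 4 members and 9.59% of all genes at an unadjusted p under 0.05.

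With vehicle, Saa3 and Apcs lay above WT on every array of both knockouts, and Saa1, Saa2 and Saa4 on every array of Liver KO livers. In Liver KO livers, Saa1 lay 1.53 and Saa2 2.18 above WT, or 2.88 and 4.55 fold, Apcs 1.07, Saa4 0.80 and Saa3 0.62, while Crp differed by -0.01. For the first 5 genes, every Liver KO array lay above every WT array, as it did for 9.8% of all genes. With the spread shared by all 6 groups, 0.879% of all genes and no member passed in limma (adjusted p = 0.0856 for Saa4 and 0.183 for Saa1), and 4 members had an unadjusted p under 0.05, as 12.6% of all genes had. In a limma fit on the Liver KO and WT vehicle arrays only, the spread of the other groups does not enter. There the same differences passed for 5 members, all but Crp, with adjusted p between 0.000763 for Saa2 and 0.0464 for Saa4. In that fit 0.96% of all genes passed. Which of the groups left out made the change was not tested.

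In whole-body KO livers with vehicle, Saa3 lay 1.39 above WT with vehicle, or 2.62 fold (95% interval 0.39 to 2.39), and Apcs 1.06, or 2.09 fold. The arrays of these 2 genes, and of 9.63% of all genes, were all above the WT arrays. Saa2 differed by 0.61, Saa1 by 0.40, Saa4 by 0.24 and Crp by -0.004, and their arrays overlapped. With 1 array left out, Saa1 ranged between 0.26 (without WT vehicle replicate 3) and 0.62 (without WT vehicle replicate 1 or whole-body KO vehicle replicate 1), and Saa4 was 0.07 without whole-body KO vehicle replicate 2 and 0.15 without WT vehicle replicate 3. With the shared spread, 1.14% of all genes and no member passed in limma (adjusted p = 0.196 for Saa3), with 2 members and 13.3% of all genes at an unadjusted p under 0.05. On the 2 compared groups only, Saa3 (adjusted p = 0.000400) and Apcs (adjusted p = 0.0215) passed, as did 1.01% of all genes. The same WT vehicle arrays served both knockout comparisons. Macrophage and Kupffer cell markers lay above WT in both, 8 of 9 in each, with medians of 0.27 in Liver KO and 0.26 in whole-body KO livers and summed levels of 11.80 to 11.91 and 11.51 to 12.09, against 11.42 to 11.68 in WT livers, and none of them had an unadjusted p under 0.05 in either. The 7 endothelial markers all lay above WT in whole-body KO livers, with a median of 0.36 and 2 at an unadjusted p under 0.05, and 4 of 7 did in Liver KO livers, with a median of 0.10 and none at that p. The summed endothelial level was 10.60 to 10.78 in whole-body KO and 10.49 to 10.56 in Liver KO livers, against 10.33 to 10.47 in WT livers. The part of these cells in the members' levels was not tested.

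**Figure D4:**
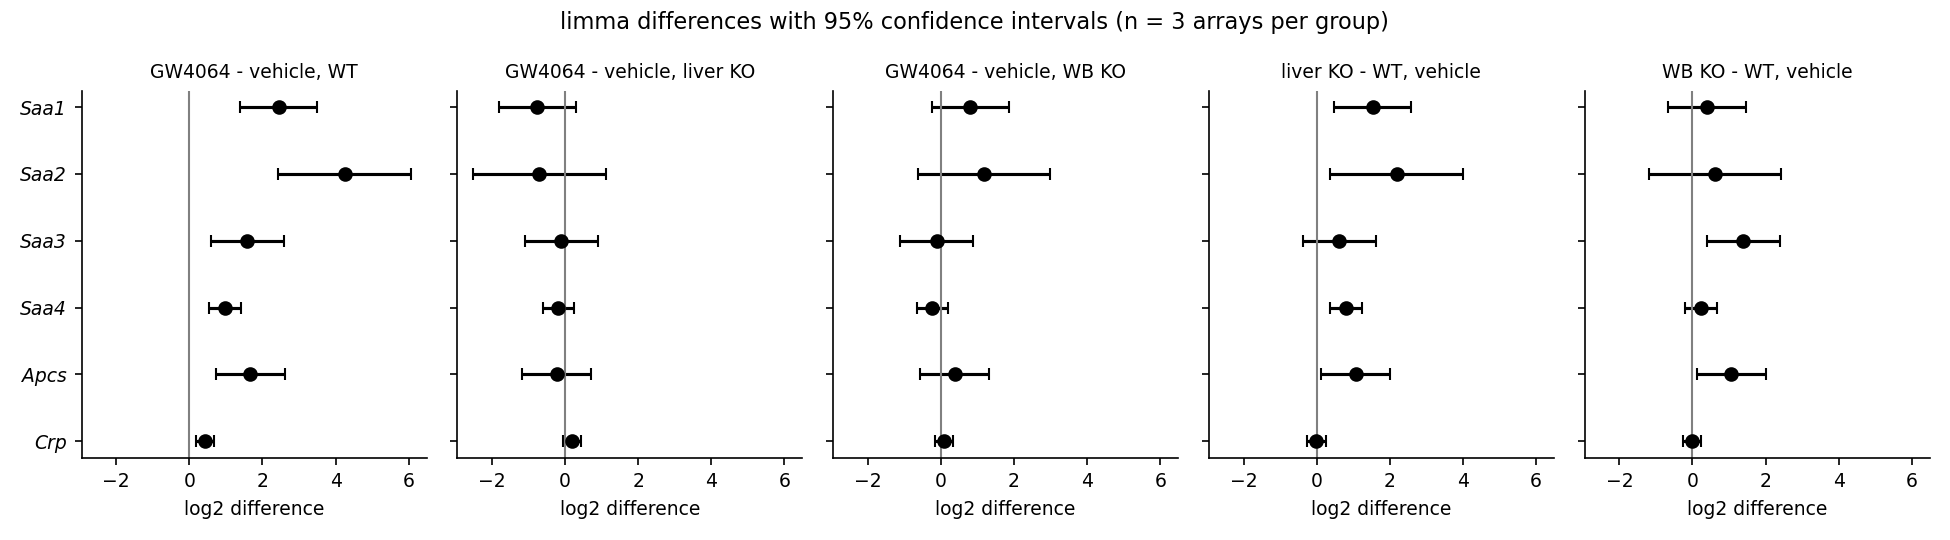
Log2 differences with 95% confidence intervals from limma (x axis) for the 6 genes (rows) in 5 comparisons (panels; WB KO, whole-body KO; n = 3 arrays per group). The intervals of WT livers with GW4064 all lie above 0, from 0.17 for Crp at the low end to 6.06 for Saa2 at the high end, and those of both knockouts with GW4064 all include 0. Each interval uses the spread shared by the 6 groups, not that of the groups compared. The SD of Saa3 was 1.64 in WT livers with GW4064 and 0.16 with vehicle. That of Crp was 0.024 in Liver KO livers with GW4064 and 0.035 with vehicle.

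Between the knockouts with vehicle, every whole-body KO array lay above every Liver KO array for Saa3, as for 11% of all genes, and below it for Saa1 and Saa2, as for 10.4% of all genes. This difference was not tested. With GW4064, every Liver KO array lay below every WT array for Crp only (9.15% of all genes), and every whole-body KO array lay below every WT array for Saa4 and Crp (11.4% of all genes). In 1 test over the 6 group means, Saa4 (adjusted p = 0.0169), Saa1 (adjusted p = 0.0424) and Saa2 (adjusted p = 0.0467) passed in limma, and Crp, Saa3 and Apcs did not (adjusted p between 0.112 and 0.165), while 6.08% of all genes passed. That test called 5 members without WT GW4064 replicate 3, and only 1 without WT GW4064 replicate 2, without whole-body KO GW4064 replicate 1 or without any single vehicle array.

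The order of the groups was the same for Saa1 and Saa2. Saa1 averaged 13.79 ± 1.04 in WT livers with GW4064, 12.88 ± 0.34 in Liver KO with vehicle, 12.55 ± 0.23 in whole-body KO with GW4064, 12.11 ± 1.23 in Liver KO with GW4064, 11.74 ± 0.38 in whole-body KO with vehicle and 11.35 ± 0.39 in WT livers with vehicle (SD, n = 3 each). Adjacent groups in that order differed by less than the larger of their SDs, except for the last pair, and each adjacent pair overlapped. In Saa2 the same held. Saa3 ran in 3 steps. The whole-body KO groups averaged 8.90 ± 0.07 with GW4064 and 9.01 ± 0.07 with vehicle, the Liver KO groups 8.13 ± 0.17 with GW4064 and 8.24 ± 0.05 with vehicle, and WT livers with vehicle 7.63 ± 0.16, with no overlap between these steps. WT livers with GW4064 spanned all of them. How many other genes ran in such steps was not counted, and the steps were not tested. For Apcs, only the gap above WT livers with vehicle (10.91 ± 0.23) exceeded the SD without overlap, and in Saa4 and Crp adjacent groups overlapped, apart from Liver KO and WT livers with GW4064 in Crp.

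From liver to liver, Saa1 and Saa2 followed each other over the 18 arrays (Pearson's r = 0.962) and also over the 15 arrays outside the WT GW4064 group (r = 0.943). Saa3 followed Apcs (r = 0.904, and 0.769 over the 15 arrays), although these genes lie on different chromosomes. Within the cluster on chromosome 7, Saa3 had r = 0.585 with Saa1 over 18 arrays and 0.285 over the 15, and 0.356 and -0.10 with Saa4. Crp had r = 0.559 with Saa1 over 18 arrays and 0.043 over the 15, so that its likeness rested on the WT GW4064 arrays. The arrays share groups and treatments, so these values describe the set and carry no test.

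**Figure D5:**
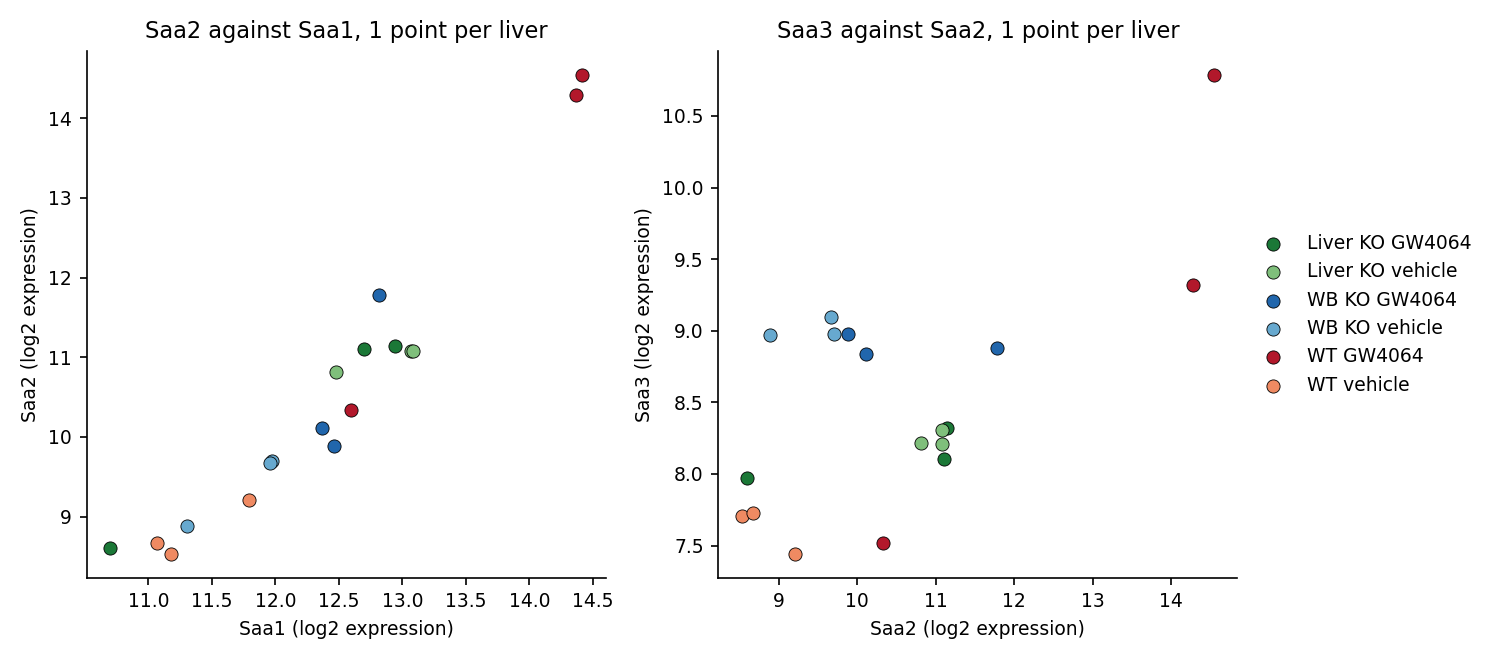
Log2 expression of Saa2 against Saa1 (left) and of Saa3 against Saa2 (right), with 1 point per liver and colours for the 6 groups (WB KO, whole-body KO). Saa1 and Saa2 lie along 1 line (r = 0.962), whereas Saa3 is higher in every whole-body KO liver than in every Liver KO liver.

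Among all other genes, those most like Saa1 over the 18 arrays were Orm1 (r = 0.866), Lrg1 (0.845), Lcn2 (0.841), Nucb2 (0.830) and Hp (0.829), of which Orm1, Lrg1, Lcn2 and Hp encode secreted acute-phase proteins. For Saa2 they were Orm1 (0.933), Hp (0.920), Ifitm2 (0.906), Lrg1 (0.902) and Orm2 (0.897). For Apcs they were Grb2 (0.913), Lcn2 (0.910), Dap (0.897), Ifitm2 (0.894) and Ift22 (0.892). Grb2, which encodes a signalling adaptor, was also among those most like Saa3 (0.854), with Pcx (0.925), which encodes pyruvate carboxylase, and Il18bp (0.860), which encodes a decoy for IL-18, ranking above it and Eif1a and Mif4gd (0.822 each) below it. For Saa4 the list was Bcl2l1 (0.872), Sec11c (0.865), Il1r1 (0.862), Ifitm3 (0.858) and Crybb3 (0.853). For Crp it was Sel1l (0.916), Chil3 (0.893), Tmed4 (0.879), Glrb (0.878) and Idua (0.872). Without the WT GW4064 arrays, the r of Crp with its listed genes lay between 0.353 (Tmed4) and 0.626 (Sel1l). That of Saa3 lay between 0.527 (Mif4gd) and 0.811 (Eif1a), and that of Saa1 between 0.619 (Hp) and 0.816 (Orm1). It was 0.663 (Orm2) to 0.856 (Orm1) for Saa2 and 0.776 (Ifitm3) to 0.859 (Crybb3) for Saa4. For Apcs it was 0.779 (Ift22) to 0.917 (Lcn2).

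The genes that act before and after the members were listed by role. In WT livers with GW4064, 0.194% of all genes passed and 12.6% had an unadjusted p under 0.05. Of 12 cytokine genes, 10 were measured, and none passed in WT livers with GW4064, with 1 at an unadjusted p under 0.05. Il6 lay between 3.31 and 3.72, Il1b between 5.54 and 6.29 and Tnf between 5.41 and 6.22 over all 18 arrays. Of 25 genes for their receptors and transcription factors, 23 were measured and 18 lay above 0 in WT livers with GW4064. Of these, 1 passed, Il1r1, which encodes the IL-1 receptor, by 1.62 (adjusted p = 0.0433 in limma). The list's median was 0.10, its range -1.0 to 1.81, and 9 of the 23 had an unadjusted p under 0.05. Of 23 other acute-phase genes, 21 were measured and 20 lay above 0, with a median of 0.72. Of these, 1 passed, Lcn2, which encodes lipocalin 2, by 5.50 (adjusted p = 0.0433), and 14 had an unadjusted p under 0.05. In Liver KO livers, 7 of the 21 lay above 0, with a median of -0.07, and in whole-body KO livers 16 did, with a median of 0.19. None of them passed, nor did any of all genes (0% in each). At an unadjusted p under 0.05 there were 0 and 1, beside 5.02% and 6.25% of all genes.

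None of the other lists had a gene that passed in WT livers with GW4064, where 0.194% of all genes passed and 12.6% had an unadjusted p under 0.05. Of 9 genes for receptors of serum amyloid A, 8 were measured, with a median of 0.14 and 1 gene at an unadjusted p under 0.05. The 7 genes for proteins that share high-density lipoprotein with it had a median of -0.08, also with 1 at an unadjusted p under 0.05. Of 11 partners of the pentraxins in complement and Fc receptors, 9 were measured, with a median of 0.02 and 2 genes at an unadjusted p under 0.05. Of 5 long pentraxins, 3 were measured, and Ptx3, the inflammatory one, stayed between 3.83 and 4.39 in all livers. Of 7 negative acute-phase genes, whose products fall in inflammation, 6 were measured, with a median of -0.05 and none at an unadjusted p under 0.05. Of 5 adipocyte markers measured, Adipoq, Lep and Cidec stayed between 3.45 and 4.03, while Retn lay between 5.64 and 6.44 and Fabp4 between 5.95 and 7.99, and the summed level of the 5 was 7.30 to 7.79 in WT livers with GW4064 and 7.85 to 8.04 with vehicle. The 6 lymphocyte markers measured lay between 3.64 and 5.92. The median over all genes was -0.004 in that comparison.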

How the data were processed

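The deposited values are log2 levels that the authors made with RMA (the processing notes give no version), and they were taken without change and without detection calls. Of 22690 probe sets, the platform annotation paired 20393 with a single symbol and 691 with more than 1, and 1606 were unnamed here. The probe set with the highest mean represented a gene, and no gene was left out as dim. Differences were tested by lmFit and eBayes (limma 3.58.1 under R 4.3.3) on 6 group means with a shared spread, and p-values were two-sided and adjusted by the Benjamini-Hochberg method over 12394 genes, with a threshold of 0.05. With 3 arrays per group, 1 per mouse by their labels, the p-values cover the spread between these samples. Named genes were the members, the 5 genes most like each by Pearson's r, Nr1h4, Nr0b2 and listed pathway genes past the threshold. Other genes named for their level (cytokines, Ptx3 and cell markers) were chosen after their values were seen. Members, lists and tests were chosen with earlier results of these data known. Alternatives were other fits, scalings, probe set rules and arrays left out. The fit was tested on simulated data. Promoter sequences are from RefSeq GRCm38.p6, aligned with Biopython 1.88, and plots were drawn with matplotlib 3.10.9 in Python 3.11.15.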

Additional observations from a re-analysis of the deposited data

How the results depend on the processing

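Of 858 values of a member's difference under an alternative, 822 kept their direction and side of the threshold, 27 passed it where the result did not, and 9 changed sign, 8 of Crp and 1 of Saa2. The number of members that passed was 0 in each pairwise comparison and 3 among the 6 groups, and these counts moved as follows. For GW4064 in WT livers, 2 passed with array weights (Saa1 at 2.51, adjusted p = 0.0491, and Saa2 at 4.44, adjusted p = 0.0297), and between 0 and 6 when 1 array was left out. With 1 array left out, between 0 and 3 passed for the effect averaged over genotypes, between 0 and 5 for the Liver KO interaction, between 0 and 3 for the whole-body KO interaction and between 1 and 5 among the 6 groups, and the highest counts of the first 3 came without WT GW4064 replicate 3. Fitted on the compared groups only, 5 passed for Liver KO and 2 for whole-body KO against WT with vehicle, and 0 for GW4064 in WT livers. Without the 2 arrays of widest spread, an alternative chosen after seeing the data, 1 passed for whole-body KO against WT with vehicle (Saa3, adjusted p = 0.0166) and 1 among the 6 groups. A trended robust prior also left 1 among the 6 groups.

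The replicate numbers pair no samples in the labels. Arrays of the same number in different groups (45 pairs) had a median correlation of deviations of 0.066 (range -0.229 to 0.339). Arrays of different numbers (90 pairs) had -0.017. Of the 18 arrays, 12 were closest to their own number, although pairs of different numbers were more common. Whether arrays of the same number share a batch was not tested. With the replicate block, 1 member passed among the 6 groups, and 1 gene passed for GW4064 in Liver KO livers and 2 for the whole-body KO interaction, where 0 had passed. It moved no other count by over 1.5 times.

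The values of Crp and Saa2 whose sign turned were these. Crp in Liver KO against WT with vehicle was -0.0063, and 0.0100 with array weights, 0.0009 with median centring and between -0.0440 and 0.0612 with 1 array left out. In whole-body KO it was -0.0040, and 0.0008 with array weights and between -0.0432 and 0.0635. Saa2 in Liver KO livers with GW4064 against vehicle ranged between -1.14 and 0.13 with 1 array left out.

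Counts over all genes moved more. For the averaged effect, 3 genes passed, and 5 without dim genes, 1 with every probe set, 1 with the mean of probe sets, 5 without the 2 widest arrays and 1 to 48 with 1 array left out. For WT livers with GW4064 the count was 24, and 0 on the compared groups only, 11 with the trended robust prior, 12 with the mean of probe sets, 3 without the 2 widest arrays, 0 with the adjusted t-test and 1 to 268 with 1 array left out. In Liver KO livers it was 0, and 2 on the compared groups only, 7 with array weights, 2 without the 2 widest arrays and 0 to 2 with 1 left out, and in whole-body KO livers 0, then 1 without the 2 widest and 0 to 4. Against WT with vehicle, Liver KO had 109, and 217 with array weights, 218 without the 2 widest, 1 with the adjusted t-test and 37 to 89 with 1 left out. Whole-body KO had 141, and 266 without the 2 widest, 5 with the adjusted t-test and 56 to 101 with 1 left out. The interactions had 0 each, and 0 to 50 and 0 to 22 with 1 left out. Among the 6 groups it was 753, and 1155 with every probe set. The cause of these moves was not tested.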
